A study of Mus musculus with 4 samples.

Results

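Mast cells and basophils are granulocytes that bind IgE on their surface and release histamine, proteases and type 2 cytokines when the IgE is crosslinked. Their expression was followed here through 10 genes, Prss34, Mcpt8, Cpa3, Fcer1a, Ms4a2, Cd200r3, Gata2, Kit, Hdc and Il4, chosen by name as a list of mast cell and basophil genes. The choice was made with earlier results of these data known. Every array probe annotated with 1 of these symbols and no other was taken, which gave 17 of the 34885 probes with a single symbol, and 10 of the 19057 genes they name. All 10 genes were represented, Cpa3 and Kit by 3 probes each, Fcer1a, Hdc and Cd200r3 by 2 each and the remaining genes by 1.

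The RNA came from spleen cells of BXD2 mice, an inbred strain that spontaneously develops a lupus-like disease, hybridised to single-colour bead arrays. The cells had been sorted as marginal zone macrophages (low CD11b, surface SIGN-R1, neither I-Ab nor the macrophage antigen that Adgre1 encodes), a gate that names no mast cell or basophil antigen, and each array pooled the cells of 2 mice. There was 1 array of BXD2 mice given an intravenous injection of 25 µg sLTβR-Fc, a soluble decoy for the ligands of the lymphotoxin β receptor. A second lone array came from BXD2-Ifnar-/- mice given PBS, which lack the type I interferon receptor. A pair of arrays, the controls, came from BXD2 mice given PBS. All mice were 2.5 months old and were killed 10 hours after the injection. All groups share the BXD2 background. An unrelated Fc protein was not among the injections, so lymphotoxin binding and any further effect of the decoy protein cannot be told apart.

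Mast cells mature in tissues under stem cell factor, which signals through the receptor Kit, whereas basophils mature in the bone marrow and circulate. Both lineages depend on the transcription factor Gata2 and both carry the tetrameric high-affinity IgE receptor, whose α chain (Fcer1a) binds IgE and whose β chain (Ms4a2) amplifies the signal. In the mouse, Mcpt8 and Prss34 encode serine proteases of basophil granules, and Cpa3 encodes a carboxypeptidase stored by both cell types. Since the arrays measured sorted bulk RNA, fewer cells of a type and less RNA per cell cannot be told apart.

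On the 4 arrays, between 23540 and 24329 of 45281 probes lay above background, and 23851 probes with a single symbol that did so on at least 1 array were tested. Values below are quantile-normalised intensities that still contain background, and differences are on the log2 scale, which understates the change of dim genes. The probes taken here for markers of the labelled cell type were dim or below background. Cd209b, which encodes SIGN-R1, read 145 on the sLTβR-Fc array and 151 on the Ifnar-/- array, against 127 and 129.9 on the controls. Its 2 further probes had median differences of 0.06 for sLTβR-Fc and 0.43 for Ifnar-/-. Marco read 167 and 180 on the lone arrays against 249 and 161, and Nr1h3 read 178 and 162 against 169 and 135. The probes of the macrophage genes Msr1 and Siglec1 taken here were not above background on any array. The other gate genes were mixed. Itgam (CD11b) read 116 on the sLTβR-Fc array and 118 on the Ifnar-/- array, against 113 and 109 on the controls. Adgre1 read 619 on the sLTβR-Fc array and 996 on the Ifnar-/- array, against 617 and 301 on the controls, and H2-Ab1 (I-Ab) read 9434 and 16209 on the lone arrays against 8606 and 8256. limma called both higher on the Ifnar-/- array (1.21 and 0.94).

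The brightest probe of each of the 10 genes was above background on all 4 arrays, so none entered the test through 1 group alone. Among the 7 further probes, 1 of Kit was below background everywhere and was not tested, and another of Kit passed only on the controls. Described by their brightest probes, all 10 genes read higher on the sLTβR-Fc array than on either control. On the Ifnar-/- array 6 lay above both controls, 2 lay between them and 2 lay below both.

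**Figure D1:**
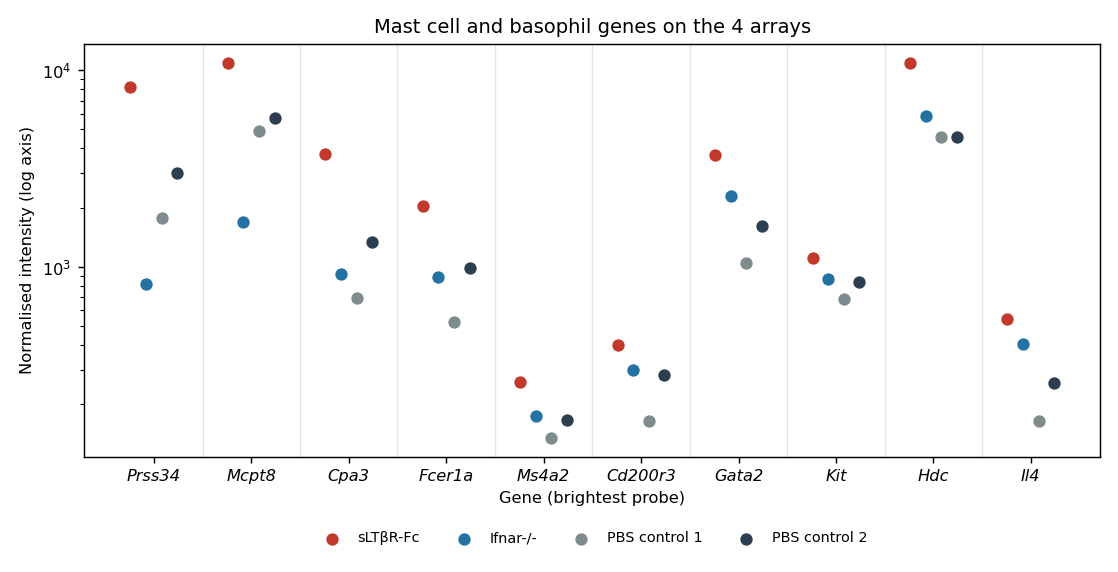
Normalised intensity (log axis) of the brightest probe of each gene, with 1 point for each of the sLTβR-Fc, Ifnar-/- and 2 PBS control arrays. The sLTβR-Fc point is the highest for all 10 genes, and the Ifnar-/- point is the lowest for Prss34 and Mcpt8 only.

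The control arrays themselves stood apart on these genes. Control 2 read higher than control 1 for all 10 members, where 52.7% of the 14578 genes tested by their brightest probe did so. The difference reached 1.5-fold for 6 members, against 0.412% of genes. Its median was 0.63 for the members and 0.01 for all genes on the log2 scale. Cpa3, Fcer1a, Cd200r3 and Prss34 ranked 8, 10, 14 and 15 of 14578 genes in this gap, at 0.94, 0.90, 0.79 and 0.77. Il4 and Gata2 differed by 0.63 each, Ms4a2 by 0.30, Kit by 0.29 and Mcpt8 by 0.22. Hdc was level at 4551 on control 1 and 4566 on control 2. The same arrays differed the opposite way on azurophil granule markers of neutrophil precursors (Mpo, Elane, Prtn3, Ctsg and Ms4a3), all 5 of which read lower on control 2, with a median of -0.42. Eosinophil markers differed by a median of 0.15. Whether the mice of the controls differed is not given in the labels, so the gap may be technical or biological.

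**Figure D2:**
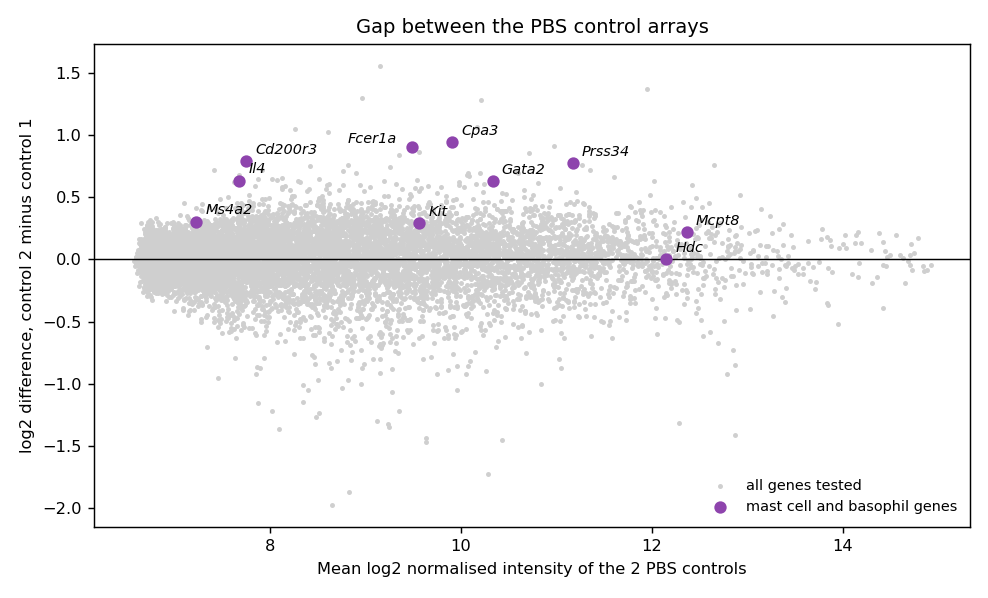
Log2 difference between the PBS control arrays, control 2 minus control 1, against their mean log2 intensity for all 14578 genes (grey) and the 10 mast cell and basophil genes (purple). The 6 highest members, from 0.63 to 0.94, sit at the upper edge of the cloud, and Hdc lies at 0.0048.

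This gap bears on the tests that follow. The sLTβR-Fc and Ifnar-/- arrays have no replicate, and limma (3 group means, 1 residual degree of freedom, adjustment by Benjamini-Hochberg over all 23851 probes) takes its error from the control pair, moderated towards genes of similar level. The moderated standard errors of the members lay between 0.13 and 0.245, while standard errors from each gene's own control gap reached 0.815 and were the larger for 9 of 10 members. Both comparisons use the same controls. A size rule was therefore set beside the test, under which a gene counts as 2-fold changed only if it differed by a log2 of 1 or more from each control.

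The proteases and the carboxypeptidase of the granules were the members with the widest range between arrays. Prss34 read 8220 on the sLTβR-Fc array and 817 on the Ifnar-/- array, against 1762 and 3014 on the controls. The sLTβR-Fc array was above both controls and the Ifnar-/- array below both, a 10.1-fold span between the lone arrays. In limma the log2 difference was 1.83 ± 0.22 (SE, n = 1 against 2; adjusted p = 1.19e-09) for sLTβR-Fc and -1.50 ± 0.22 (adjusted p = 3.1e-07) for Ifnar-/-. Both passed the size rule. Mcpt8, long used as a marker of mouse basophils, read 10907 on the sLTβR-Fc array and 1683 on the Ifnar-/- array, against 4893 and 5697 on the controls. It had the same order of arrays as Prss34 with controls that lay close together. The limma difference was 1.05 ± 0.17 (adjusted p = 2.51e-06) for sLTβR-Fc, which fell short of 2-fold against control 2 (log2 0.94), and -1.65 ± 0.17 (adjusted p = 7.5e-12) for Ifnar-/-, which was 2-fold against each control. Of 14578 genes, Mcpt8 and Prss34 held places 47 and 61 from the bottom on the Ifnar-/- array.

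Cpa3 did not share the fall. It read 3725 on the sLTβR-Fc array and 916 on the Ifnar-/- array, against 692 and 1330 on the controls, so the Ifnar-/- value lay between the controls. Its limma difference was 1.96 ± 0.24 (adjusted p = 4.5e-09) for sLTβR-Fc, the largest of the 10 members there, and -0.07 ± 0.24 (adjusted p = 0.92) for Ifnar-/-. A further Cpa3 probe gave 2.00 and -0.06, and a dim one, at 148 on the sLTβR-Fc array, gave 0.33 and 0.10. Set directly against each other, the sLTβR-Fc array read 4.07-fold the Ifnar-/- array for Cpa3, 10.1-fold for Prss34 and 6.48-fold for Mcpt8. For the other 7 members this ratio ran between 1.28-fold (Kit) and 2.30-fold (Fcer1a). These ratios compare 1 array with 1 array and have no test.

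The regions upstream of these 3 genes are shown because the genes rose together on the sLTβR-Fc array and parted on the Ifnar-/- array. They are the 250 bases before the annotated start in RefSeq (GRCm38.p6), 5′ to 3′ on the gene's strand, at chr17:25298144-25298393, plus strand, at chr14:56085198-56085447, minus strand and at chr3:20242182-20242431, minus strand. The upstream region of Ms4a2 (chr19:11623720-11623969, minus strand) is added as the member with the most matches. Capitals mark GATAA on either strand (TTATC on the reverse), 1 form of the sites that GATA factors bind. Other forms, such as GATAG, were not searched.
Prss34: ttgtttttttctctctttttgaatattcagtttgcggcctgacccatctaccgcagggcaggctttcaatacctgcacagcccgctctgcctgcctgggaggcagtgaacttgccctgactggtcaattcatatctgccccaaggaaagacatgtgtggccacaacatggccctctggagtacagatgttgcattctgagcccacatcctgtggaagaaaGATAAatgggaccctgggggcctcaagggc
Mcpt8: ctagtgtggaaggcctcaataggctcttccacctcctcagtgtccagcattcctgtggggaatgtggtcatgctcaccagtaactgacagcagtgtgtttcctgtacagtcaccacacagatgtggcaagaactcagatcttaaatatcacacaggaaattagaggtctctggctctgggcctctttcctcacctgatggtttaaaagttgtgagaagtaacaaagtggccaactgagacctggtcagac
Cpa3: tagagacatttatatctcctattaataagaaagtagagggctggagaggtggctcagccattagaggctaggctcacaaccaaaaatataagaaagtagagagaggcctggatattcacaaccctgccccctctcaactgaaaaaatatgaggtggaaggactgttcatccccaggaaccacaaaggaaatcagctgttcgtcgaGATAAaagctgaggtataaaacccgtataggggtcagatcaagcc
Ms4a2: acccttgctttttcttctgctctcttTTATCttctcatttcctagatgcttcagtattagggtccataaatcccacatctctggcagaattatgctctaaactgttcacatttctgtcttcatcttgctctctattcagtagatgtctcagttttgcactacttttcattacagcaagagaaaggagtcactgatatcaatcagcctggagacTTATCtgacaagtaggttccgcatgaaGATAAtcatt
The match in Prss34 starts at position -30 from the start site and that in Cpa3 at -45, Ms4a2 has 3 matches, and the Mcpt8 window has none. All 10 members were matched to the promoter table, through 13 entries. At least 1 GATAA was found in an entry of 5 members (Prss34, Cpa3, Fcer1a, Ms4a2 and Cd200r3), and 22.6% of all 32851 windows of this length hold 1. At least 2 matches were found for Ms4a2 and Cd200r3, against 4.28% of all windows. No entry of Gata2, Hdc, Kit, Il4 or Mcpt8 holds GATAA. The letters GATAG, which were not counted, do occur in Hdc and in an entry of Il4, so these members are not free of GATA-like letters. The E-box pattern CANNTG, which reads the same on both strands, was present in 7 members and in 66.2% of windows, and none of its matches in a member overlapped a GATAA match. A match is a run of letters and shows no binding.

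The IgE receptor chains were higher on the sLTβR-Fc array. Fcer1a read 2047 on that array and 891 on the Ifnar-/- array, against 526 and 983 on the controls. The Ifnar-/- value lay between the controls, and the control gap was nearly as large as the distance of the sLTβR-Fc array from control 2 (log2 0.90 and 1.06). In limma Fcer1a rose by 1.51 ± 0.24 with sLTβR-Fc (adjusted p = 3.0e-06), and its Ifnar-/- difference was 0.31 ± 0.24 (adjusted p = 0.508). The second Fcer1a probe gave 1.14 ± 0.15 and 0.27 ± 0.15 in the 2 comparisons. Ms4a2 was dim, at 261 on the sLTβR-Fc array and 175 on the Ifnar-/- array, against 135 and 166 on the controls. It rose by 0.80 ± 0.13 with sLTβR-Fc (limma, adjusted p = 3.1e-06) without reaching 2-fold, and differed by 0.23 ± 0.13 on the Ifnar-/- array (adjusted p = 0.314). The only probe of Fcer1g, which encodes the γ chain that the receptor needs for transport and signalling, was not above background on any array. With 1 probe, an absent transcript and a probe that fails cannot be told apart. Cd200r3, an activating receptor of the CD200 receptor family that basophils and mast cells carry, read 399 on the sLTβR-Fc array and 298 on the Ifnar-/- array, against 164 and 283 on the controls. Its rise with sLTβR-Fc (0.89 ± 0.18, limma adjusted p = 2.1e-04) was the one rise of a member on that array that did not exceed the control gap when measured from the nearer control (0.50 against 0.79). The Ifnar-/- difference was 0.47 ± 0.18 (adjusted p = 0.0864), and the second Cd200r3 probe, at 117 to 135 on the 4 arrays, gave 0.07 and -0.03.

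The transcription factor Gata2 was higher on both lone arrays. It read 3718 on the sLTβR-Fc array and 2281 on the Ifnar-/- array, against 1040 and 1604 on the controls. The limma difference was 1.53 ± 0.22 (adjusted p = 2.9e-07) for sLTβR-Fc and 0.82 ± 0.22 (adjusted p = 0.00737) for Ifnar-/-, the second of these smaller than the control gap when measured from control 2 (0.51 against 0.63). In the deposited, unscaled intensities the Ifnar-/- difference was 0.50 with an adjusted p of 0.168. Kit, the receptor for stem cell factor, had the smallest difference of the 10 on the sLTβR-Fc array. Its brightest probe read 1111 on the sLTβR-Fc array and 869 on the Ifnar-/- array, against 685 and 839 on the controls, and neither difference passed limma (0.55 ± 0.23, adjusted p = 0.0977, and 0.20 ± 0.23, adjusted p = 0.683). In the deposited values Kit turned to -0.15 and -0.12. The 2 further Kit probes stayed between 98.3 and 123 on every array.

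The enzyme and cytokine genes made up the remainder. Hdc, histidine decarboxylase, which makes histamine, read 10860 on the sLTβR-Fc array and 5828 on the Ifnar-/- array, against 4551 and 4566 on the controls. With controls this close, it rose by 1.25 ± 0.15 with sLTβR-Fc (limma, adjusted p = 1.8e-09) and differed by 0.35 ± 0.15 on the Ifnar-/- array (adjusted p = 0.133). The dimmer Hdc probe, at 598 and 395 on the lone arrays against 180 and 212 on the controls, gave 1.61 ± 0.17 and 1.02 ± 0.17, and both passed (adjusted p = 4.5e-11 and 1.01e-05), so the probes of Hdc disagree on the Ifnar-/- array. Il4, the cytokine that directs type 2 immunity, read 543 on the sLTβR-Fc array and 403 on the Ifnar-/- array, against 165 and 255 on the controls. Both lone arrays were above both controls, by 1.41 ± 0.19 for sLTβR-Fc (limma, adjusted p = 1.92e-08) and by 0.98 ± 0.19 for Ifnar-/- (adjusted p = 6.3e-05). The sLTβR-Fc value was 2-fold above each control and the Ifnar-/- value was not.

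**Figure D3:**
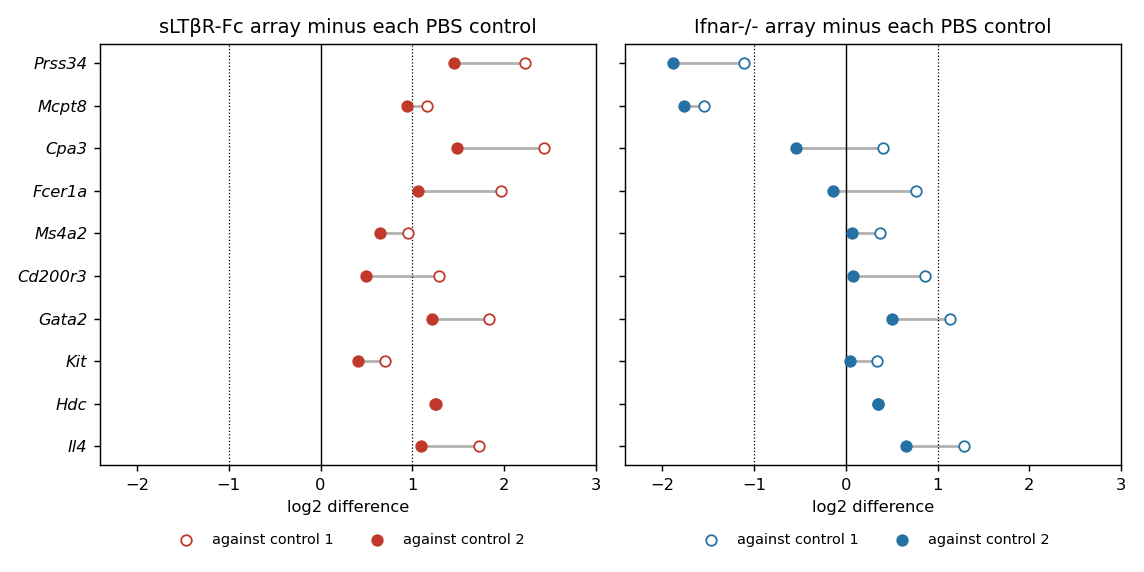
Log2 difference of each gene's brightest probe from PBS control 1 (open) and from control 2 (filled), for the sLTβR-Fc array on the left and the Ifnar-/- array on the right, with dotted lines at a 2-fold change. All sLTβR-Fc points lie above 0, whereas the Ifnar-/- points straddle 0 for Cpa3 and Fcer1a and lie below -1 for Prss34 and Mcpt8.

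Counted over the list, limma called 9 of 10 members higher on the sLTβR-Fc array, Kit being the exception, where 8.12% of genes were called higher. The size rule took 6 (Cpa3, Prss34, Fcer1a, Gata2, Hdc and Il4), where 1.01% of genes passed it. None was called lower, against 6.28% of genes. All 10 lay above both controls, as did 43.9% of genes, and none below both, where 35.7% lay. For 9 of them the distance above the nearer control exceeded the gap between the controls, as it did for 30.1% of genes (22% in the opposite direction). The median difference of the members was 1.33, against 0.02 for all genes, and ranged from 0.55 to 1.96. Because the list was chosen with earlier results known, the shares of all genes give scale only, and no set test was run. In the deposited values, where the median of all genes was -0.21 (-0.14 for Ifnar-/-), the members' median was 0.83, the size rule took 1 member, Prss34, and Kit lay below both controls. Under median scaling, where the median of all genes was 0.23 (0.11 for Ifnar-/-), the members' median was 1.27 and the size rule took 5 members, with Mcpt8 added and Fcer1a and Il4 lost. With values raised to a floor at the background limit limma called 0 of 23851 probes in either comparison, and 5271 probes for sLTβR-Fc and 4551 for Ifnar-/- had an unadjusted p under 0.05, 2 members among them in each. The sLTβR-Fc calls of Cd200r3 (adjusted p = 0.257) and Ms4a2 (adjusted p = 0.0539) were lost in the deposited values, and those of Cd200r3 (adjusted p = 0.173) and Fcer1a (adjusted p = 0.072) in limma without a mean-variance trend.

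On the Ifnar-/- array limma called 2 members higher (Gata2 and Il4), where 6.2% of genes were called higher, and 2 lower (Prss34 and Mcpt8), where 6.39% were called lower. The size rule took the same 2 lower members, where 0.926% of genes passed it, and 0 higher, where 0.556% did. The 6 members above both controls (Ms4a2, Cd200r3, Gata2, Kit, Hdc and Il4) compare with 42.8% of genes, and the 2 below both with 35.2%. The gap between the controls was exceeded upwards by Il4 and Hdc (27.1% of genes) and downwards by Prss34 and Mcpt8 (21.6% of genes). The median difference was 0.27, against 0.02 for all genes. It was 0.02 in the deposited values, 0.06 without control 1 and 0.39 without control 2. Without control 2 as a comparator the 2-fold higher count was 2 (Gata2 and Il4) in place of 0, and without control 1 the number of members below the remaining control was 4 in place of 2. In the deposited values 2 members lay above both controls, in place of 6. Without a trend limma kept Mcpt8 as its 1 called member, with Prss34 at an adjusted p of 0.0536, Il4 at 0.0932 and Gata2 at 0.136.

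**Figure D4:**
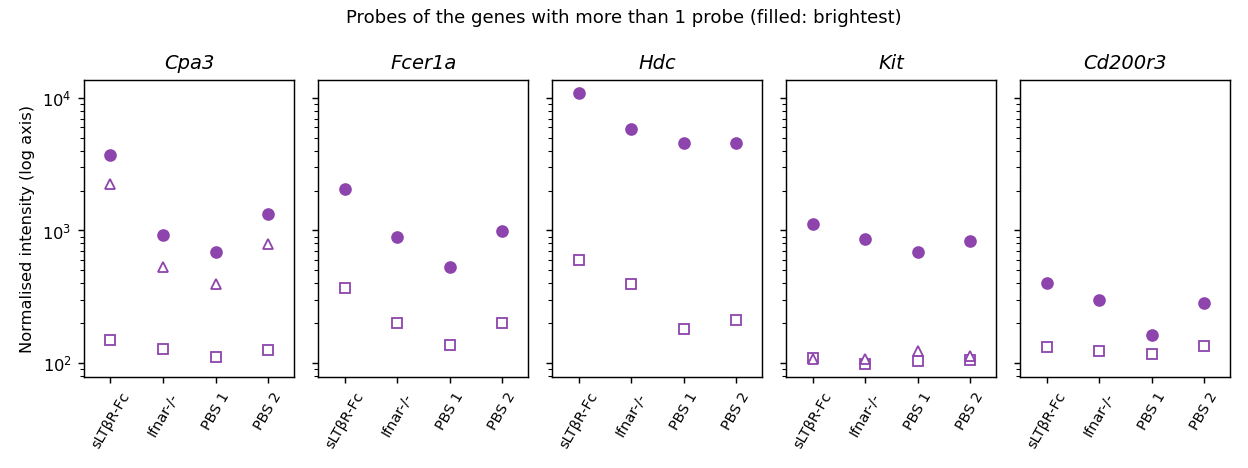
Normalised intensity (log axis) of every probe of the 5 genes that have more than 1, on the sLTβR-Fc, Ifnar-/- and 2 PBS control arrays, with the brightest probe filled. Both probes of Fcer1a and the brighter pair of Cpa3 keep the same order of arrays, while the further probes of Kit and Cd200r3 lie near background.

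Genes that work with the members were read from 4 lists of other mast cell and basophil genes. For scale in all lists below, limma called 8.12% of all genes higher and 6.28% lower on the sLTβR-Fc array. On the Ifnar-/- array it called 6.2% higher and 6.39% lower. Of 11 other mast cell granule genes, 10 were on the array under a single symbol and 7 were tested. limma called 4 of them higher on the sLTβR-Fc array and none on the Ifnar-/- array, at medians of 0.44 and 0.15. Mcpt1, a chymase of mucosal mast cells, was the one 2-fold higher, at 827 on the sLTβR-Fc array and 155 on the Ifnar-/- array, against 219 and 171 on the controls (2.09 ± 0.16, limma adjusted p = 2.4e-16). The other 3 were the connective tissue mast cell chymase genes Cma1 (0.96) and Mcpt4 (0.44) and the granule proteoglycan gene Srgn (0.90), which many blood cells express. The further Cma1 probe gave 0.30 for sLTβR-Fc and 0.42 for Ifnar-/-, and the further Srgn probe 0.85 and -0.04. The tryptase genes Tpsb2 and Tpsab1, which mark connective tissue mast cells, were near or below background, with Tpsb2 at 117 on the sLTβR-Fc array as the one exception. On this list control 2 read higher than control 1 for 4 of 7 genes, with a median gap of 0.04.

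Of 14 genes of signalling below the IgE receptor, 11 were tested. limma called none of them higher and 1 lower on the sLTβR-Fc array, the adaptor Lat (-1.07), and called 4 higher on the Ifnar-/- array, the kinase gene Syk (1.15), the adaptor gene Grap2 (0.33), the phospholipase gene Plcg2 (0.78) and the phosphatase gene Inpp5d (0.58). Many of these genes also act in lymphocytes. Grap2 was dim, at 166 on the Ifnar-/- array against 132 and 132 on the controls, and its further tested probe gave 0.09 there. Syk, Plcg2 and Inpp5d have 1 probe each. Of 15 lineage factors, growth factor receptors and ligands, 12 were tested, and limma called 2 higher on the sLTβR-Fc array, Il3ra (0.59), a chain of the interleukin-3 receptor, and Tslp (0.90), which encodes an epithelial cytokine that drives basophil responses, and called Stat5b lower (-0.33). On the Ifnar-/- array it called 1 higher, Csf2rb2 (0.62), another receptor chain for interleukin-3 in the mouse, whose controls differed by 0.55. Il1rl1, the interleukin-33 receptor, was not among the single-symbol probes, and Mitf, a transcription factor of mast cells, was not above background. Of 9 genes for type 2 cytokines and lipid mediators, 7 were tested and limma called 3 higher on the sLTβR-Fc array, Alox5 (0.64) and Alox5ap (0.88) of leukotriene synthesis and Ptgs2 (1.10) of prostaglandin synthesis, and none on the Ifnar-/- array. These counts rest on the brightest probes. The further Alox5ap probe gave 1.37 for sLTβR-Fc and 1.05 for Ifnar-/-, against 0.88 and 0.35 for the brightest. The 2 further Alox5 probes had medians of 0.23 and 0.09. Il13 stayed between 119 and 132 on the 4 arrays, and Il9 was not above background on any.

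Markers of other cell types were read on the same arrays, and the shares of all genes given above are the scale for their counts too. Of 7 eosinophil markers tested, 5 were higher on the sLTβR-Fc array by limma and the size rule, the granule protein genes Ear6 (3.06), Epx (2.85), Prg3 (2.58), Prg2 (2.24) and Ear10 (1.75). The surface receptor genes did not pass limma, Siglecf at 0.08 (adjusted p = 0.571) and Il5ra at -0.14 (adjusted p = 0.404), the second below both controls. Both were dim, Siglecf at 100 to 112 on the 4 arrays and Il5ra at 122 to 139, so background could hide a change. The summed intensity of that list was 32406 on the sLTβR-Fc array and 5748 on the Ifnar-/- array, against 6750 and 7239 on the controls, while the eosinophil receptor gene Ccr3 was not above background on any array. Prg2 made up most of this sum on each array, with 19346 on the sLTβR-Fc array. All 5 azurophil granule markers passed limma as higher on the sLTβR-Fc array, 4 of them by the size rule, Elane (2.52), Ms4a3 (1.95), Prtn3 (1.90) and Ctsg (1.39). Mpo, the remaining marker, gave 0.52 there by its brightest probe, while its 3 further probes had a median of 1.69. All 5 passed as lower on the Ifnar-/- array, Ctsg by the size rule (-1.49), and the summed intensity of that list was 72873 on the sLTβR-Fc array and 17566 on the Ifnar-/- array, against 40032 and 30263 on the controls. Mpo was the largest part of this sum on each array, with 31559 on the sLTβR-Fc array. Prss34 and Mcpt8 thus had the order of arrays that these 5 markers had, except between the controls, where the members were higher on control 2 and the markers lower.

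Stem and progenitor markers, which share Kit and Gata2 as genes of early blood cells, lay at a median of -0.0042 for sLTβR-Fc and -0.04 for Ifnar-/-, with summed intensities of 7649 and 5845 on the lone arrays against 7856 and 7377 on the controls. Most of each sum was Lmo2, at 4893 on the sLTβR-Fc array and 3856 on the Ifnar-/- array, against 5534 and 5066 on the controls. Of 10 tested, limma called 3 higher on the sLTβR-Fc array, the transcription factor genes Sox4 (1.07) and Myb (1.00) and the surface marker gene Cd34 (0.39), and called Gfi1b lower (-0.88). The further probe of Sox4 gave -0.16 there, and the further 2 of Myb a median of -0.17. On the Ifnar-/- array Gfi1b was 2-fold lower (-1.03) and Tal1 was lower (-0.50). T cell and Th2 markers, another source of Il4, summed to 2907 on the sLTβR-Fc array and 2924 on the Ifnar-/- array, against 4297 and 5288 on the controls. Cd3d was the largest part of this sum on each array, with 1286 on the sLTβR-Fc array. In limma 3 of 8 of these markers were lower in each comparison, where 6.28% and 6.39% of all genes were, and none was higher. Gata3, the factor of Th2 cells, read 154 and 145 on the lone arrays against 148 and 141 on the controls. The part of any of these cell types in the differences of the 10 members was not tested.

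**Figure D5:**
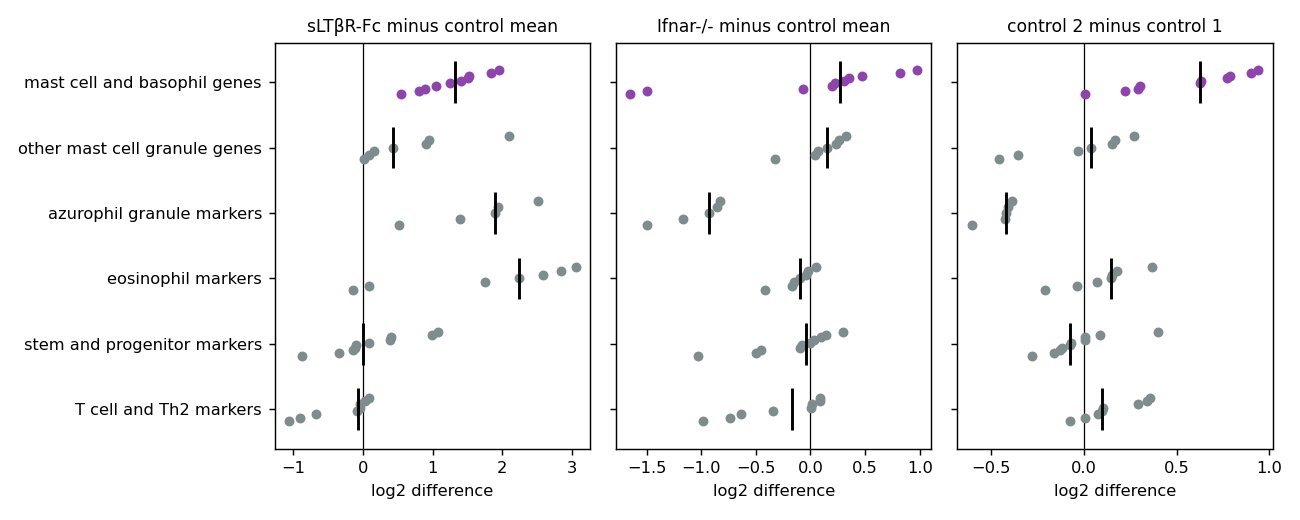
Log2 differences of the tested genes of 6 lists (points, 1 per gene by its brightest probe) with the list median (black bar), for sLTβR-Fc minus the control mean, Ifnar-/- minus the control mean, and control 2 minus control 1. The mast cell and basophil genes have medians of 1.33, 0.27 and 0.63, and the azurophil granule markers 1.90, -0.93 and -0.42.

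The genes outside the list whose profile came nearest to the members' median profile were sought by Euclidean distance over the 4 arrays, after centring each gene on its control mean, among 14568 genes. The 10 nearest were Cd69, Erdr1, Mapkapk3, Spns3, Mtf1, Edem2, Ldhc, H3c6, Sub1 and Gpc1, at distances of 0.24 to 0.426. The members themselves lay between 0.269 and 1.96 from that profile, Mcpt8 and Prss34 being the farthest. Cd69, an early activation antigen of leukocytes, read 5666 on the sLTβR-Fc array and 2413 on the Ifnar-/- array, against 1662 and 2296 on the controls. With 4 arrays such likeness is a description only.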

How the data were processed

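Biotin-labelled cRNA was hybridised to 4 Illumina single-colour arrays, per the labels' protocols. GenomeStudio 2011.1 appears in the submitters' processing notes. The authors deposited 1 linear intensity per probe and array, and what was done to these intensities before deposit is not stated in those notes or labels. The most frequent intensity was 99.3 to 108 and the upper quartile 146 to 188. No scan date, slide or detection p-value was used, and the number of arrays limits the precision.

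A probe was above background on an array when it passed the 95% point of the noise around the most frequent intensity (limits 106 to 116). The intensities were converted to log2 and quantile normalised with no floor, since ties at a floor leave probes without spread. The 23851 probes (of 34885 with 1 symbol) above background on at least 1 array were fitted in limma 3.58.1 (R 4.3.3) with 3 group means and eBayes with a trend, and called at an adjusted p under 0.05. The p-values measure only the spread between the control arrays, which may be technical, and the fit gives both lone arrays that same spread. Tested on simulated data for the sLTβR-Fc comparison (23851 probes), limma recovered 93% of probes changed by a log2 of 1 and 100% at a log2 of 2, with 8.2 false calls on average. The size rule recovered 32% and 100%. All simulated arrays had the spread that the control pair shows at a probe's level, as the fit assumes. These rates therefore cannot tell how reliable the calls are for genes with a wider control gap, as most members have. Alternatives were the deposited values, median scaling, normexp correction, a floor, other filters, 1 probe a gene, no trend, other fold thresholds and leaving out each control.

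Each gene is described by its probe with the highest mean. Named are the members, genes of the other lists that pass the size rule (up to 6 a list), the gate genes, the 10 nearest profiles and genes behind counts of 5 or fewer, these last chosen after their values were seen. The members, the lists and the setting without a floor were chosen with earlier results of these data known. Upstream sequences are from RefSeq (GRCm38.p6).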

Additional observations from a re-analysis of the deposited data

How the results depend on the processing

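No paired analysis was possible because the lone groups have 1 array each and the labels pair no arrays across groups. Under the 10 alternatives to the processing all 10 members kept the sign of their sLTβR-Fc difference, except Kit in the deposited values (-0.15). For Ifnar-/- the sign turned in the deposited values for Kit (-0.12) and Fcer1a (-0.0021), without control 1 for Fcer1a (-0.14) and without control 2 for Cpa3 (0.40), none of them called. The counts of probes called higher and lower by limma and 2-fold higher and lower were 1595, 1625, 180 and 93 for sLTβR-Fc and 1315, 1416, 111 and 176 for Ifnar-/-. In the deposited values they were 230, 7551, 38 and 879 for sLTβR-Fc, with 1 member 2-fold higher, 1 below both controls and a members' median of 0.83. For Ifnar-/- they were 337, 3485, 47 and 401, with 1 member called higher and 2 above both controls. Median scaling gave 8154 probes called higher and 170 2-fold lower for sLTβR-Fc, where 5 members in place of 6 were 2-fold higher (Mcpt8 in, Fcer1a and Il4 out), and normexp correction gave 152 2-fold lower. With a floor limma called 0 probes and 0 members in both comparisons (lowest adjusted p 0.159 for sLTβR-Fc and 0.197 for Ifnar-/-), at a prior of 0.858 degrees of freedom, against 67.5 without the floor. Without a trend limma called 770 probes higher and 656 lower for sLTβR-Fc and 699 and 783 for Ifnar-/-, where 0 members were higher and 1 lower. With 1 probe a gene, so fewer tests, 915 were lower for sLTβR-Fc. Among single members, the sLTβR-Fc calls of Cd200r3 (adjusted p = 0.257) and Ms4a2 (0.0539) were lost in the deposited values, and those of Cd200r3 (0.173) and Fcer1a (0.072) without a trend in limma. The Ifnar-/- call of Gata2 was lost in the deposited values (0.168), and those of Gata2 (0.136), Il4 (0.0932) and Prss34 (0.0536) without a trend, while normexp correction added Cd200r3 (0.0363). Apart from the floor and these changes, no limma call of a member changed, and the cause of the changes was not tested.

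Leaving out each control in turn gave 6 to 8 members 2-fold higher with sLTβR-Fc, at medians of 1.07 to 1.503, and 146 to 226 probes 2-fold lower. For Ifnar-/- it gave 0 to 2 members 2-fold higher and 2 to 4 below the remaining control, at medians of 0.06 to 0.39, with 151 to 211 probes 2-fold higher and 210 to 355 lower. A 1.5-fold rule took 582 probes higher and 511 lower for sLTβR-Fc and 543 and 645 for Ifnar-/-, with 1 member higher there. A 4-fold rule took 15 and 2 for sLTβR-Fc and 3 and 8 for Ifnar-/-, and 0 members. Dim genes are limited most, since background remains in the values.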

Other observations

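Mcpt8 lies in a cluster of mast cell protease, cathepsin and granzyme genes on chromosome 14. The 8 protein-coding genes on either side of it in the RefSeq annotation were read after the values of Mcpt8 had been seen. Of these 16 neighbours 12 were tested, and limma called 5 higher on the sLTβR-Fc array, none lower, and on the Ifnar-/- array 1 lower and none higher. Over all genes limma called 8.12% higher and 6.28% lower on the sLTβR-Fc array, and 6.2% higher and 6.39% lower on the Ifnar-/- array. The 5 were Cma1, Cma2, Mcpt1, Mcpt4 and Ctsg, which all lie within 6 places of Mcpt8. All but Cma2 had already been counted in the lists above. Cma2, a chymase gene, read 337 on the sLTβR-Fc array and 135 on the Ifnar-/- array, against 139 and 125 on the controls, a limma difference of 1.36 ± 0.12 (adjusted p = 4.7e-14). Ctsg, the cathepsin G gene directly beside Mcpt8, read 19860 on the sLTβR-Fc array and 2684 on the Ifnar-/- array, against 8709 and 6563 on the controls. It was the 1 neighbour called on the Ifnar-/- array (-1.49, adjusted p = 1.6e-12), where Mcpt8 lay at -1.65. Mcpt1 read 155 on the Ifnar-/- array, against 219 and 171 on the controls. The granzyme genes on the other side of Ctsg (Gzmd, Gzmg, Gzmn, Gzmf and Gzmc among those tested) stayed between 98.2 and 139 on all 4 arrays. Genes of this cluster resemble each other in sequence, and whether their probes tell them apart was not tested.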
